A study of Mus musculus with 2 samples.

Results

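Mir126a and Mir126b are miRNA genes annotated on opposite strands of the same stretch of the mouse gene Egfl7. They were taken from the deposited tables by gene identifier, through the names in the GENCODE M21 annotation, and are 2 of the 2202 miRNA genes in each table. The tables come from microRNA-seq of heart tissue of adult male mice, aged 8 to 10 months, of the strain 5xFAD/CAST. 5xFAD is a transgenic mouse model that forms amyloid in the brain from human genes driven by a neuronal promoter, and CAST is a wild-derived inbred strain. Both libraries belong to a single group, biological replicates 1 and 2, made from total RNA with the size range given as below 30, and no group without the 5xFAD/CAST background was compared here. The replicates carry different biosample entries but the same donor entry, and the labels do not say that they are separate animals. Spreads and p-values between them therefore measure only how far these 2 libraries differ, which may be technical.

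miRNAs are short RNAs cut from the arms of a hairpin precursor. Bases near the 5′ end of the mature miRNA, the seed, pair with target mRNAs and lower their stability or translation. miR-126 is known as the characteristic miRNA of endothelial cells, which line the heart's vessels and chambers, and its host gene Egfl7 encodes a secreted factor of the same cells. Its best known targets are Spred1 and Pik3r2, restraints on signalling by the growth factor VEGF, and the adhesion molecule Vcam1, and mice without miR-126 have leaky vessels.

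The hairpin of Mir126a (ENSMUSG00000065540.1) lies on mm10 chromosome 2 from 26591357 to 26591429 on the plus strand and is 73 bases long. Mir126b (ENSMUSG00000105799.1) lies on the minus strand from 26591363 to 26591420 and is 58 bases long. The Mir126b hairpin is the exact reverse complement of bases 7 to 64 of the Mir126a hairpin, so all 58 of its bases are shared with the other gene. Both hairpins are shown because the strand of a read is all that separates them. They are RefSeq sequences on GRCm38.p6, the assembly of the mm10 coordinates, written 5′ to 3′, with the mature miRNAs that the table holds for each hairpin in capitals.
Mir126a hairpin: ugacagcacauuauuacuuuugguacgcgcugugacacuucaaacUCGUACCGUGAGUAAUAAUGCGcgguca
Mir126b hairpin: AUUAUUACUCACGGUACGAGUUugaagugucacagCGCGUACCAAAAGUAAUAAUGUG

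The mature sequences follow, also from RefSeq, with the seed (bases 2 to 8) in capitals. They are shown because the miRNAs of the 2 strands overlap in the genome but carry different seeds.
miR-126a-3p: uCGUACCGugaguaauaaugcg
miR-126b-5p: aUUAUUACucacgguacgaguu
miR-126b-3p: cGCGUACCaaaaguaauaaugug

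miR-126a-3p takes bases 46 to 67 of its hairpin, at 26591402 to 26591423 on the plus strand. Of its 22 bases, 19 lie opposite miR-126b-5p, which runs from 26591399 to 26591420 on the minus strand. miR-126b-3p runs from 26591363 to 26591385 on the minus strand. None of the 3 seeds printed is shared: 0 other mature entries of the RefSeq table, which holds 1738 entries under 1679 names, have the seed of miR-126a-3p, miR-126b-5p or miR-126b-3p. The seed of miR-126a-5p, the other arm of Mir126a, was not compared. Among the hairpins of all 2202 counted genes, the longest run of bases that Mir126a shares with another hairpin on the same strand is 11, with Mir7039. For Mir126b it is 12, with Mir6405. No other counted hairpin shares 15 or more bases with either of them. The complete miR-126a-3p sequence occurs in 2 of 141767 annotated transcripts, the Mir126a precursor and an Egfl7 transcript that contains it.

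**Figure D1:**
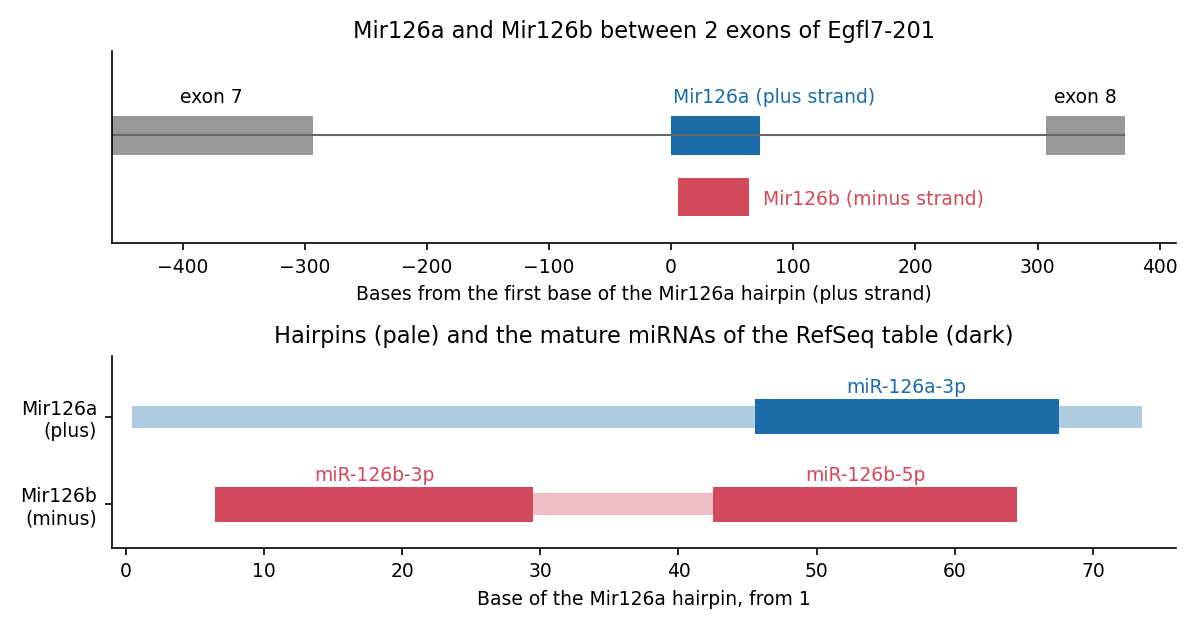
The upper panel places Mir126a (blue, plus strand) and Mir126b (red, minus strand) between exons 7 and 8 of the Egfl7 transcript Egfl7-201 (grey), in bases from the first base of Mir126a. The lower panel places the mature miRNAs (dark) on the hairpins (pale) by base of the Mir126a hairpin, and shows 19 of the 22 bases of miR-126a-3p lying opposite miR-126b-5p.

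Egfl7 (ENSMUSG00000026921.18) spans 26580014 to 26593120 on the plus strand of chromosome 2, so Mir126a is read in the direction of its host and Mir126b against it. The place of the hairpin depends on the Egfl7 transcript. It is intronic in 8 of 19 annotated transcripts, lies in an exon of 1, the retained-intron transcript Egfl7-206, and falls outside the other 10. In Egfl7-201 it lies in the 600-base intron between exon 7 (26590899 to 26591063) and exon 8 (26591664 to 26591728), 293 bases after the first and 234 bases before the second. Transcripts Egfl7-211 and Egfl7-208 start 4 and 5 bases past the end of the Mir126a hairpin. The hairpin is also inside an intron of Gm20532, a longer gene on the plus strand from 26586639 to 26635634. The deposited tables count miRNA genes only, so no level of Egfl7 itself was measured.

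Either strand can fold as a hairpin in a computed structure. The Mir126a hairpin had a predicted minimum free energy of -31.2 kcal/mol with 27 base pairs, 2 of them G-U. The Mir126b hairpin had -19.3 kcal/mol with 21 base pairs. Restricted to the 58 bases that both genes cover, the plus strand had -19.4 kcal/mol and the minus strand -19.3 kcal/mol. On equal length the predicted energies of the strands thus differed little. Per base, 29.11% of the 2202 counted hairpins were predicted more stable than Mir126a and 61.17% more stable than Mir126b.

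Sense reads given to a gene numbered 3889280 in replicate 1 and 5058613 in replicate 2, which is 35.93% and 35.59% of all reads in the tables. Reads that aligned to several places, 42.27% and 46.79% of all reads, were given to no gene, so levels below are among reads given to a gene. Of the 2202 genes, 325 had at least 10 sense counts in both libraries and are called detected, and 1490 had 0 in both. Counts are summed over the annotated hairpin, so the mature arms, miR-126a-5p and miR-126a-3p for Mir126a, were not counted apart.

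Nearly all reads at the locus came from the plus strand. Mir126a had 338813 sense counts in replicate 1 and 444082 in replicate 2, and Mir126b had 6 and 4. Scaled to CPM, sense counts per 1000000 in the library, replicate 1 had 87114.6 for Mir126a, with a 95% Clopper-Pearson interval from 86834.5 to 87395.3. Replicate 2 had 87787.3, with an interval from 87540.8 to 88034.2. The mean was 87450.9 ± 475.7 CPM (SD, n = 2). This is 8.745% ± 0.0476 of sense counts. It is 3.13% and 3.125% of all reads in the tables, including those that were unmapped or aligned to several places. Mir126a ranked 2 of 2202 in each library, behind Mir378a, and also ranked 2 per hairpin base, at 1198.0 CPM per base. This rank is by reads given to a gene only. Reads that aligned to several places were 1.177 and 1.315 times as many, so it is no rank among all miRNAs of the heart. In a bulk sample a change in the number of endothelial cells and a change in RNA per cell cannot be told apart, and whether the reads came from endothelial cells was not tested. Intervals and limits here cover counting error only, since reads copied by PCR without molecular identifiers are not independent molecules.

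Mir126b had 1.543 CPM in replicate 1, with an interval from 0.566 to 3.358, and 0.7907 CPM in replicate 2, with an interval from 0.2154 to 2.025. Its mean was 1.167 ± 0.532 CPM (SD, n = 2). A count of 0 would allow up to 3 counts, equal to 0.771 CPM and 0.593 CPM for replicates 1 and 2. The values lie above this limit but their intervals reach below it in both libraries, so no detection is read from it. Both counts lie under the 10 asked of a detected gene. Mir126b ranked 404 of 2202 by mean CPM, in a crowded low range where 185 genes had 1 to 10 sense counts in both libraries. Per hairpin base its level was 0.0201 CPM. The count ratio of Mir126a to Mir126b was 56468.8 to 1 in replicate 1 (25943.6 to 153874.5) and 111020.5 to 1 in replicate 2 (43360.4 to 407466.8). These intervals overlap, so a difference in the ratio between the libraries was not detectable at this depth.

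The deposited counts also show how much the level of Mir126a rests on strand. Each table has 3 count columns, of which column 2 ignores strand, column 3 holds the sense strand and column 4 the opposite strand, as judged from their layout and values. In column 2, Mir126a kept only 27 counts in replicate 1 and 23 in replicate 2, and Mir126b kept 0 and 0. Mir126a thus kept 0.007969% and 0.005179% of its sense counts, a mean of 0.006574% ± 0.00197, and its rank fell from 2 to 262. In column 4 the genes changed places, with 6 and 4 counts for Mir126a and 338786 and 444059 for Mir126b. Read from that column, Mir126b would appear among the most abundant miRNA genes of the heart.

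**Figure D2:**
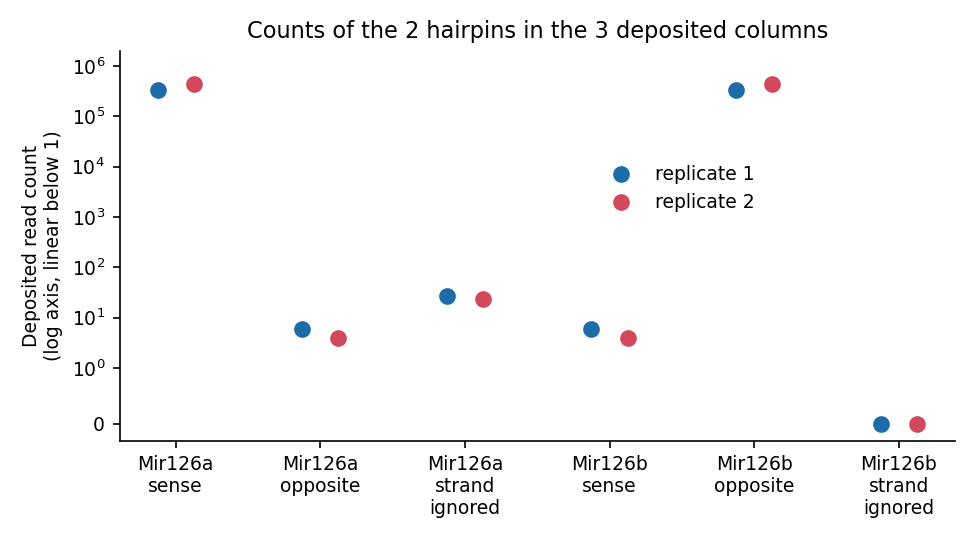
Deposited read counts of Mir126a and Mir126b (log axis, linear below 1) in the sense column, the opposite-strand column and the column that ignores strand, with a point for each library. The sense counts of Mir126a, 338813 and 444082, reappear almost whole as opposite-strand counts of Mir126b, and 27 and 23 of them remain where strand is ignored.

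The columns fit together to the single read. The sense count of Mir126a exceeded the opposite-strand count of Mir126b by 27 in replicate 1 and by 23 in replicate 2, exactly the numbers that Mir126a kept with strand ignored. These reads overlap Mir126a and not Mir126b, and can only touch the first 6 or the last 9 bases of the Mir126a hairpin. All others, 338792 and 444063 reads on both strands together, overlapped both genes and were set aside as ambiguous once strand was ignored. They made up 39.49% of all ambiguous reads of replicate 1 and 34.84% of those of replicate 2, and 99.99% of the counts of these genes in each library.

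The same held at other loci with a miRNA gene on each strand. The annotation has 32 such overlapping pairs, and together they account for 857956 of the 857957 ambiguous reads of replicate 1 and 1274428 of the 1274429 of replicate 2. In 7 pairs the summed sense counts reached 1000 in both libraries. The pair of Mir378a and Gm25301 took the most, 48.14% and 56.58% of ambiguous reads, followed by Mir126a and Mir126b.

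The weaker strand took from 0 to 2.5% of the counts in these 7 pairs. At the locus in Egfl7, Mir126b held 0.001771% of the counts of both genes in replicate 1, with a 95% Clopper-Pearson interval from 0.00065 to 0.003854. In replicate 2 it held 0.0009007%, with an interval from 0.000245 to 0.002306, and the mean was 0.001336% ± 0.000615 (SD, n = 2). Gm25301 had 0 counts against 413035 and 721126 of Mir378a. Mir30f, opposite Mir30e, and Gm25927, opposite the let-7 gene Mirlet7e, also had 0 in both libraries, and Gm24083, opposite Mir191, had 0 and 1. Mir497b had 1 count in each library against 4615 and 3476 of Mir497. Mir3107, opposite Mir486, a miRNA gene known from red blood cells and muscle, stood apart with 133 and 125 counts, or 2.5% (2.097 to 2.956) and 2.352% (1.961 to 2.796). The hairpins of Mir486 and Mir3107 share a run of 22 bases read on their own strands, against 10 for Mir126a and Mir126b.

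Counts opposite genes with no miRNA gene on the other strand give the background against which the 6 and 4 counts of Mir126b can be read. Over 2138 such genes, opposite-strand counts were 107 in replicate 1, or 0.00353% (0.002893 to 0.004265), and 109 in replicate 2, or 0.00288% (0.002365 to 0.003475). Mir122, a liver miRNA gene with 112 and 137 sense counts, gave 62 and 43 of these alone. The Mir126b share lay below this pooled value in both libraries, with intervals that overlap in replicate 1 and do not in replicate 2.

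The 30 genes with at least 10000 sense counts in both libraries and no miRNA gene opposite are a closer match in abundance. Their pooled opposite-strand share was 0.000326% in replicate 1 (9 counts, 0.000149 to 0.00062) and 0.000205% in replicate 2 (7 counts, 8.24e-05 to 0.000422). The Mir126b share lay above it in both libraries, with intervals that do not overlap in replicate 1 and overlap in replicate 2. Of the 30 genes, 28 had 0 opposite-strand counts in replicate 1 and 29 in replicate 2. Those above the Mir126b share were Mirlet7b (0.002848%) and Mir320 (0.01207%) in replicate 1 and Mirlet7b (0.002297%) in replicate 2. Mirlet7g, the gene nearest to Mir126a in level, had 0 opposite-strand counts beside 269191 and 371423 sense counts, which allows a share of up to 0.001114% and 0.0008077%. The place of the Mir126b counts thus differs with the reference, and whether they come from a miRNA of the minus strand was not tested.

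**Figure D3:**
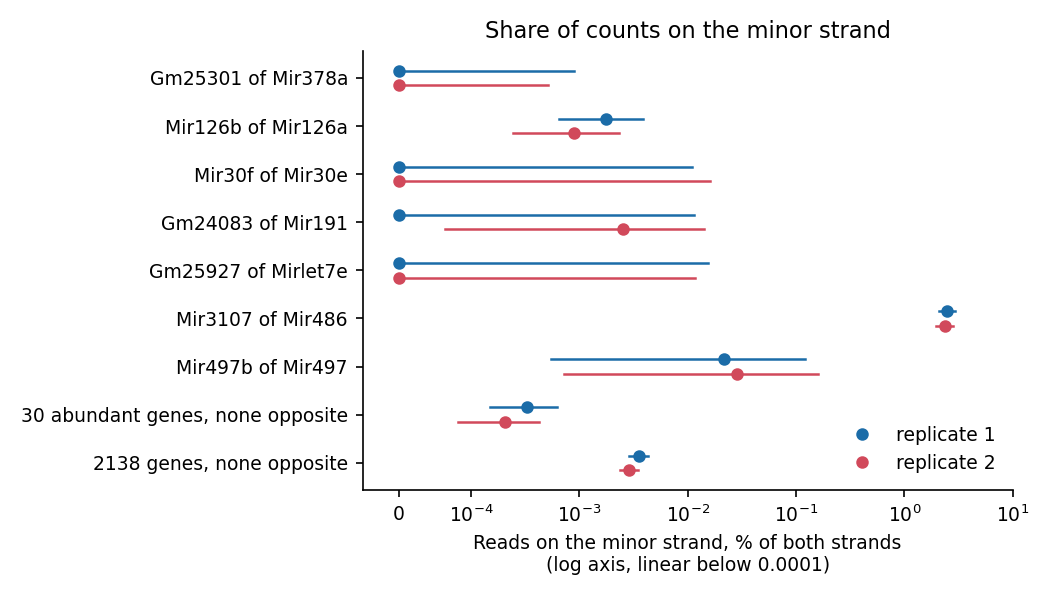
Share of counts on the weaker strand in percent of both strands (log axis, linear below 0.0001) for the 7 pairs of miRNA genes and, at the bottom, the opposite-strand share of 30 abundant genes and of 2138 genes with no miRNA gene opposite. Points are libraries and bars are 95% Clopper-Pearson intervals; Mir126b sits at 0.001771% and 0.0009007%, and Mir3107 at 2.5% and 2.352%.

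The level of Mir126a was close in the 2 libraries. After TMM scaling, which sets the library sizes by the bulk of the genes, it was 1.096-fold higher in replicate 2 (counting interval 1.091 to 1.101), a log2 ratio of 0.13. The two-sided exact binomial test called this difference, with a Benjamini-Hochberg adjusted p of at most 1.58e-299. It also called 45.4% of the 412 genes tested, 187 in all, with 22.6% higher in replicate 2, so the call by itself does not mark Mir126a out. Scaled by total sense counts instead, the fold was 1.008 and the log2 ratio 0.01 (adjusted p = 0.00208, exact binomial test). With reads aligned to several places added to the library size, Mir126a was 1.055-fold higher in replicate 1, a log2 ratio of -0.08 (adjusted p = 8.74e-122, exact binomial test). The sign therefore follows the scaling. The log2 ratio of the median detected gene moved to -0.12 under total counts and -0.19 under the last scaling. Relative to this median gene, the log2 difference of Mir126a was 0.13 under TMM and 0.13 under total counts. It was 0.11 with the reads aligned to several places. A change of library size shifts all log2 ratios alike, apart from the effect of the 1 CPM added. That these differences stayed close was therefore set in advance and is no test.

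In size the difference was small beside that of other genes. The median absolute log2 ratio after TMM scaling was 0.20 over the 20 most abundant genes and 0.36 over the 325 detected genes. Of the detected genes, 60 had a smaller absolute log2 ratio than Mir126a, and 4 had a smaller one under total counts. For Mir126b the log2 ratio was -0.44 with 1 CPM added to both levels, and the count ratio of replicate 2 to replicate 1 was 0.557 after TMM scaling (0.116 to 2.35). This did not pass the exact binomial test (adjusted p = 0.669), and the interval includes changes of 2-fold in either direction.

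**Figure D4:**
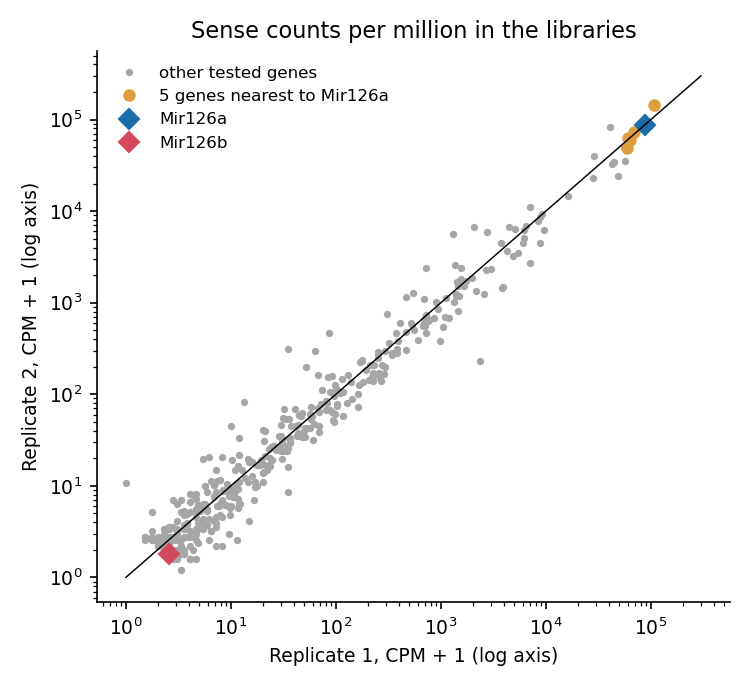
Level of each of the 412 tested genes in replicate 1 against replicate 2, as CPM plus 1 on log axes, with the line of equality. Mir126a lies next to the line at 87114.6 and 87787.3 CPM among its nearest genes, and Mir126b at the low end with 1.543 and 0.7907 CPM.

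The genes nearest to Mir126a in level, by distance of log2 CPM over the 2 libraries, were Mirlet7g, Mirlet7b, Mirlet7i, Mir378a and Mir23b. The let-7 genes belong to a large family with a common seed that is abundant in most adult tissues. Mirlet7g stood at 69213.6 and 73423.9 CPM, a mean of 71318.7 ± 2977.1 (SD, n = 2). Mirlet7b had a mean of 61719.6 ± 2076.0 CPM and Mirlet7i one of 61595.2 ± 2389.3 CPM. Mir378a, a hairpin within the metabolic regulator gene Ppargc1b, had 106198.3 and 142554.1 CPM. Mir23b, of the miR-23, miR-27 and miR-24 cluster known from endothelial cells, had 59091.4 and 48975.1 CPM. In both libraries Mir126a lay below Mir378a and above the other 4. Its neighbours in the order of mean levels, Mir378a above and Mirlet7g below, did not overlap with it, while Mirlet7b and Mirlet7i overlapped with each other. In replicate 2 the gene directly below Mir126a was instead Mir22, at 82183.4 CPM, which had 41034.6 CPM in replicate 1.

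Divided by hairpin length, the levels were 1884.5 CPM per base for Mir378a, 1198.0 for Mir126a, 810.4 for Mirlet7g, 730.2 for Mir23b, 726.1 for Mirlet7b and 724.6 for Mirlet7i. Mir126a thus kept its place between Mir378a and Mirlet7g on this scale. Whether counts of such short RNAs grow with hairpin length was not tested. The levels of genes with close copies elsewhere, such as Mir378a, Mir23a and Mir23b, are uncertain, since reads that aligned to several places were given to none of them.

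Mir126a was also set beside other miRNA genes known from endothelial cells and vessel growth. This list holds 40 genes, both members included, of which 36 were detected. They took 25.13% of sense counts in replicate 1 and 21.9% in replicate 2, and Mir126a alone made up 34.67% and 40.08% of the list's counts. The median level of the detected list genes was 844.6 CPM (10.39 CPM per base), against 49.23 CPM (0.6095 CPM per base) over all 325 detected genes. The list was chosen with earlier results of these data known and holds Mir126a itself. The higher median is therefore not read as a result about endothelial cells.

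The 6 most abundant list genes had the same order in CPM and in CPM per base. After Mir126a and Mir23b came Mir23a, a paralog of Mir23b, at 45901.6 ± 14757.0 CPM (612 CPM per base). Mir34a, a target of the tumour suppressor p53 that rises in ageing endothelium and heart, stood at 8677.7 ± 98.49 CPM (85.08 per base). Mir27b, a clustered partner of Mir23b, stood at 5538.5 ± 1578.1 CPM (75.87 per base), and Mir100, a regulator of mTOR in vessels, at 5265.1 ± 1120.8 CPM (65.81 per base). Mir27b lay higher in replicate 2, with 4422.7 and 6654.4 CPM, while Mir23b, Mir23a and Mir100 lay higher in replicate 1. The step from Mir23a to Mir34a was the widest among these 6 genes. At the low end Mir19a, of the miR-17-92 cluster, had 0 counts in both libraries, while the cluster's Mir17 and Mir20a stood at 890.7 ± 55.56 and 688.3 ± 83.59 CPM. Mir217, a gene associated with endothelial ageing, had 4 counts in each library. Mir126b, Mir217, Mir19b-1 and Mir19a were the 4 list genes not detected. Some list genes are numbered copies, as the name Mir181b-1 shows, and reads aligned to several places were given to no gene. Whether this lowered the counts of list genes was not tested, so low or 0 counts here do not show absence.

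Of the other 38 list genes, 35 were tested between the libraries and 27 were called by the exact binomial test, 14 higher in replicate 2 and 13 higher in replicate 1, beside 45.4% called over all genes. Their log2 ratios ran from -1.74 for Mir181b-1 to 1.43 for Mir31, where Mir126a had 0.13. The median log2 ratio over the tested list genes was 0.07, and it was -0.05 under scaling by total counts. Genes of the list therefore moved both ways between the libraries, and so did all tested genes, with 93 called higher in replicate 2 and 94 in replicate 1. Over all genes the share called rose with the count filter, from 25.56% with none to 62.06% at a summed count of at least 50. The list genes were more abundant than most, so their 77.14% called is not read as a trait of the list.

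**Figure D5:**
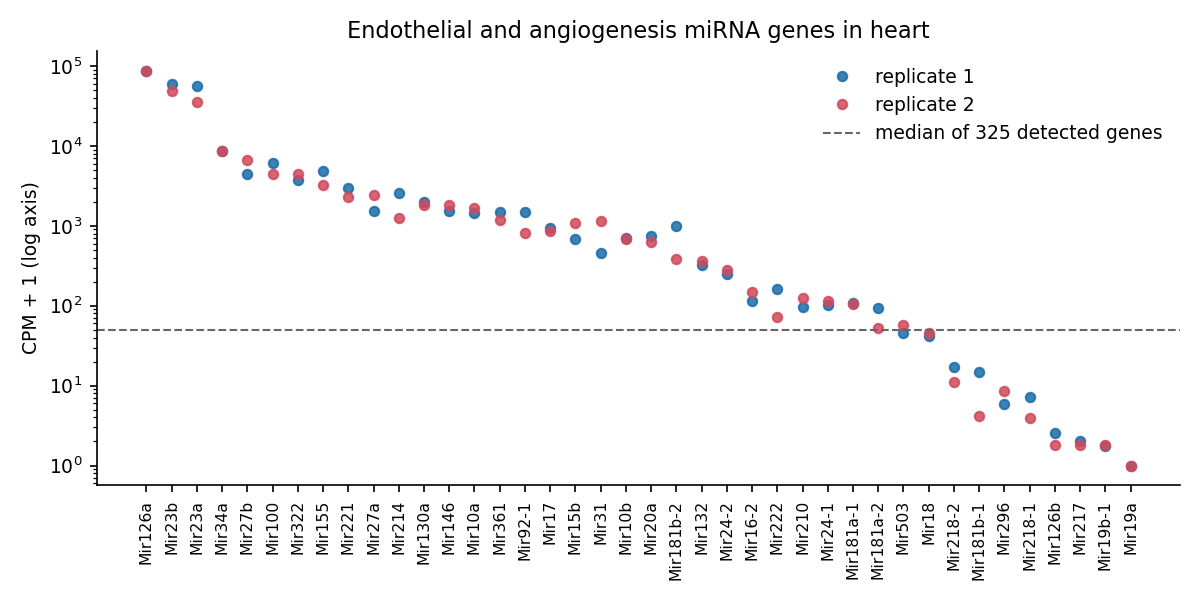
Level of the 40 endothelial and angiogenesis miRNA genes in each library, as CPM plus 1 on a log axis, in order of mean level. The dashed line is the median of the 325 detected genes, 49.23 CPM; Mir126a leads the list at 87114.6 and 87787.3 CPM, and Mir126b lies near its low end at 1.543 and 0.7907 CPM.

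Markers of other cell types give the surroundings in which Mir126a was measured. The cardiac muscle genes, led by Mir499 of the myosin gene Myh7b, took 0.6776% and 0.7481% of sense counts, and 6 of 7 were detected. Mir126a had 12.86 and 11.73 times the counts of that list. The list's hairpins of miR-1 and miR-133 have close copies on other chromosomes and were low here, with Mir1a-2 highest among them at 40.07 ± 5.397 CPM, so the ratio is no measure of muscle against vessel cells. The smooth muscle genes Mir143 and Mir145a took 3.014% and 4.175%, and Mir126a had 2.891 and 2.103 times their counts. Fibroblast genes, led by Mir214, took 0.261% and 0.1265% with 3 of 4 detected and Mir199a-1 at 0. The miR-199 genes of this list are close copies of each other, and reads aligned to several places were given to none of them. Their low counts and the list's share are therefore no measure of fibroblasts. Mir214 is on the endothelial and angiogenesis list too.

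Blood cells also carry miR-126 at some stages, and their markers were present at lower levels. The erythroid genes, led by Mir486, took 0.1654% and 0.1243%, with 3 of 3 detected. Mir486 gave 5187 of the list's 6431 counts in replicate 1 and 5190 of 6288 in replicate 2. It is also known from muscle, so this share is no measure of red blood cells alone. Its hairpin shares a run of 22 bases with that of Mir3107, and reads aligned to several places were given to neither. How far this lowered the count of Mir486 was not tested, so ratios to the erythroid list are no measure against red blood cells. The leukocyte genes, led by Mir155, took 0.683% and 0.5%, with 4 of 4 detected, and Mir155 is on the endothelial and angiogenesis list too. Mir126a had 52.68 and 70.62 times the counts of the erythroid list and 12.75 and 17.56 times those of the leukocyte list. Their part in the level of Mir126a was not tested.

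Markers of cell types from outside the heart took small shares of sense counts. Neuronal genes took 0.001388% and 0.001819%, with 1 of 6 matched genes detected, Mir137, and Mir124a-1, Mir124a-3 and Mir9-2 at 0. The miR-124 and miR-9 genes are close copies within each family, and reads aligned to several places were given to none of them. Their low counts are therefore no measure of how much of these miRNAs was present. Mir122 of the liver took 0.00288% and 0.002708%. Epithelial genes, led by Mir203, took 0.01844% in replicate 1 and 0.03469% in replicate 2. Mir203 stood at 118.8 ± 49.8 CPM, above the median of 49.23 CPM over all detected genes. Of the 7 epithelial genes tested, 5 were called by the exact binomial test, all 5 higher in replicate 2. Over all tested genes 45.4% were called and 22.6% were called higher in replicate 2.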

How the data were processed

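The deposited tables hold raw read counts per miRNA gene, 1 table per library, not normalized by the authors. Genome build mm10 and GENCODE M21 are named in the deposited description files, and the read aligner is not given in the sources used here, nor is the counter or any filter. Summary lines that name no gene stayed out of library sizes. The strand column with the larger total, column 3, was taken as sense. CPM were computed from sense counts. Genes with a summed sense count of at least 10 were tested between the libraries with an exact binomial test (two-sided) against the ratio of TMM library sizes (edgeR 4.0.16, R 4.3.3), with Benjamini-Hochberg adjustment at 0.05 over all 412 genes. p-values under 1e-300 were set to 1e-300. With a single group, edgeR's quasi-likelihood test could not be used. Each log2 ratio sets replicate 2 over replicate 1 after adding 1 CPM to either level, so ratios of low genes are understated. Intervals are 95% Clopper-Pearson (scipy 1.17.1). Hairpins were folded with ViennaRNA 2.7.2.

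The procedure was tested on simulated counts of the 412 genes, drawn with counting (Poisson) error only, which is the error the test covers. It called 75.5% of 200 genes changed 2-fold, 100% of those with at least 1000 counts, and 1.887% of unchanged genes. The real libraries varied beyond counting error, with an edgeR coefficient of variation of 0.359. The simulated rates therefore do not carry over to calls between them. Alternatives covered the count column, the library size (DESeq2 1.42.0 size factors among them), the pseudocount, the count filter and each replicate.

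The members and gene lists were chosen with earlier results of these data known. Genes named are both members, the 5 nearest to Mir126a in log2(CPM + 1), the 6 most abundant list genes and those at 0, the pairs with at least 1000 counts in both libraries, the host gene and the leading marker genes. Others (Mir22, Mir122, Mir320, Mir31, Mir181b-1, Mir17, Mir20a, Mir217, Mir19b-1, Mir1a-2 and further markers) were named after their values were seen. Of the neuronal list, Mir124-2 matched no name and was not used here.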

Additional observations from a re-analysis of the deposited data

How the results depend on the processing

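Of 42 alternatives, 3 changed the sign of a log2 ratio and 9 moved a level or share by more than 1 SD of the libraries or a rank by more than 1.5 times. The other 30 stayed within these bounds, kept a ratio's direction and side of the test's threshold, or kept a count of calls within 1.5 times. Counted without strand, Mir126a stood at 7.492 CPM and rank 262, Mir126b at 0 CPM, the list median at 1111.8 CPM, and the log2 ratio of Mir126a at -0.39 (adjusted p = 0.461, exact binomial test), since the pair's reads are then set aside. With reads aligned to several places in the denominator, Mir126a stood at 38975.3 CPM, Mir126b at 0.525 CPM and the log2 ratio at -0.078. Without the most abundant gene in the denominator Mir126a stood at 99923.8 CPM. The list median was 691.5 CPM with at least 1 count for detection and 828.9 to 838.7 CPM with either replicate left out. The list's median log2 ratio was -0.051 under total counts, which also called 199 genes, 79 higher in replicate 2 and 120 higher in replicate 1, against 93 and 94 under TMM. Leaving out a replicate gave 87114.6 to 87787.3 CPM for Mir126a and 0.7907 to 1.543 CPM for Mir126b.

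Depth limits Mir126b, with 6 and 4 counts: the interval of its count ratio between the libraries ran from 0.116 to 2.35. With 2 libraries of 1 group, no sample can be judged an outlier and no condition compared.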
